A study of Arabidopsis thaliana with 6 samples.

Results

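GH3.3, WES1 and HAT2 are 3 auxin-regulated genes of Arabidopsis thaliana, examined here on Affymetrix ATH1 arrays of GRF9-IOE plants, which express the transcription factor GRF9 under an estradiol (EST)-inducible promoter. They are 3 of 13355 genes with a probe set that the array annotation pairs with that gene alone. They were chosen by their names in that annotation after their values on these arrays were known, namely by a higher signal after EST in seedlings at 3 h, a drift of the mock signal from 3 h to 4 h, a lower signal after EST in leaves and a level in leaves that differs from seedlings. All of these values are therefore a description, and no test is given for the 3 genes. Each condition had 1 array. Seedlings, 2 weeks old and grown on MS plates, were harvested 3 h or 4 h after 10 µM EST or after mock treatment with 0.1% ethanol. Detached mature leaves of soil-grown plants, 40 days old by the sample labels, were harvested 6 h after the same treatments. The study's methods give a different age for these plants, and a different ethanol concentration for the mock treatment of seedlings and leaves alike. Every array came from GRF9-IOE plants in the Col-0 background, mock arrays included, and without arrays of EST-treated plants lacking the transgene the inducer and GRF9 cannot be told apart. GRF9 has no probe set on ATH1 by the study's account, so its induction could not be read from these arrays.

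Auxin is a plant hormone that steers cell division, elongation and organ formation. Its receptors mark Aux/IAA repressors for degradation, which frees ARF transcription factors to activate early response genes. GH3.3 and WES1 (also called GH3.5) belong to the GH3 family, whose auxin-acting enzymes join indole-3-acetic acid to amino acids and so lower the pool of free hormone. They are themselves induced by auxin, and WES1 also acts on salicylic acid. HAT2 is a transcription factor of the homeodomain-leucine zipper class II, known as an early auxin-inducible gene with effects on shoot and root growth.

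All values are log2 signals normalized by the authors with GCRMA, so that a difference of 1 is a 2-fold change. The lowest value on every array was 2.15, and 22.8% to 24.3% of probe sets were equal to it within 1e-06. The 3 genes lay at least 2.42 above it on every array, so none of their differences was limited by that minimum. Each gene had 1 probe set. Whether its probes also bind transcripts of close relatives was not examined here. The tissue labels were checked with PYK10, a β-glucosidase abundant in roots, whose signal was 12.06 to 12.27 on the 4 seedling arrays and 2.17 on both leaf arrays. RCA, the Rubisco activase of photosynthetic tissue, had signals of 13.44 to 14.13 on all 6 arrays. Of the lists of markers, 2 of 10 root genes, 1 of 7 photosynthesis genes and 0 of 5 genes of dividing cells were measured. The second root gene, EXPA7 of root hairs, stood at 2.15 to 2.25 on all 6 arrays.

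GH3.3 had its lowest signal in mock seedlings at 3 h and its highest in mock leaves. Its log2 signal was 5.06 in mock and 5.80 in EST seedlings at 3 h, 5.95 in mock and 5.67 in EST seedlings at 4 h, and 7.39 in mock and 6.48 in EST leaves at 6 h. The 3 seedling arrays other than mock 3 h lay within 0.28 of each other, and the mock 3 h array lay 0.61 below the lowest of them. Both leaf arrays lay above all 4 seedling arrays.

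WES1 repeated this order of arrays in part, over a smaller range. Its signal was 4.77 in mock and 5.54 in EST seedlings at 3 h, 5.37 in mock and 5.21 in EST seedlings at 4 h, and 5.92 in mock and 5.66 in EST leaves. Mock seedlings at 3 h were again lowest, 0.44 below the next array, while the other 3 seedling arrays spanned 0.33. The leaf arrays were the highest, although the EST leaf array exceeded the EST 3 h seedling array by only 0.13.

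HAT2 showed the widest separation of leaves from seedlings among the 3 genes. Its signal was 4.57 in mock and 5.30 in EST seedlings at 3 h, 5.03 on both the mock and the EST array at 4 h, and 8.03 in mock and 7.20 in EST leaves. The mock 3 h array was the lowest, 0.46 below the next, with the other 3 seedling arrays within 0.27 of each other. The lower of the leaf arrays stood 1.90 above the highest seedling array.

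**Figure D1:**
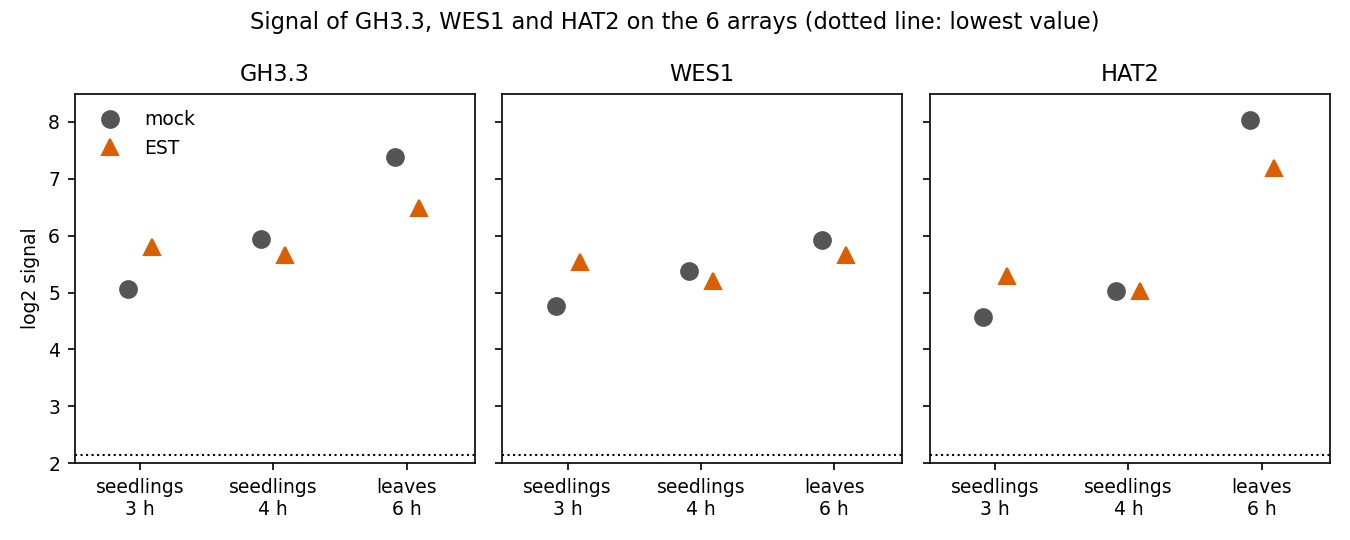
Log2 signal (vertical axis) of GH3.3, WES1 and HAT2 in seedlings at 3 h and 4 h and in detached leaves at 6 h; circles are mock arrays and triangles EST arrays, 1 array each, and the dotted line is the lowest value of 2.15. For each gene the mock 3 h array is the lowest of the 6 and the mock leaf array the highest.

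At 3 h in seedlings the signals after EST exceeded those of mock by nearly the same amount for the 3 genes. The difference was 0.74 for GH3.3, 0.77 for WES1 and 0.73 for HAT2, which are 1.67-fold, 1.70-fold and 1.66-fold. None of the 3 reached 2-fold, which 1.13% of the 13355 genes did upward and 0.389% downward at 3 h. All 3 passed 1.5-fold, as did 3.68% of all genes, a contrast on which the genes were chosen. A difference as high as that of WES1 was found for 268 genes, WES1 included, and one as high as that of HAT2 for 299.

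The mock seedling arrays alone differed by a comparable amount. From mock 3 h to mock 4 h, without EST, the signal of GH3.3 was higher by 0.89, that of WES1 by 0.60 and that of HAT2 by 0.46. For GH3.3 this drift was larger than the difference between EST and mock at 3 h, by 0.15. For WES1 and HAT2 it was smaller, by 0.17 and 0.27. In this drift 0 of the 3 genes reached 2-fold, against 0.419% of all genes upward and 0.292% downward, and GH3.3 and WES1 passed 1.5-fold, against 2.83%. When the EST array of 3 h was set against the mock array of 4 h, the differences were -0.15 for GH3.3, 0.17 for WES1 and 0.27 for HAT2. Among the 3058 genes with a mean seedling signal between 4 and 7, a window that holds the 3 genes, the middle 95% of the mock drift ran from -0.65 to 0.85. The 3 h differences of WES1, GH3.3 and HAT2 lie inside that range, and so do the drifts of WES1 and HAT2, whereas the drift of GH3.3 lies just above it. With 1 array per condition, a response to EST at 3 h cannot be told apart from the low position of the mock 3 h array.

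**Figure D2:**
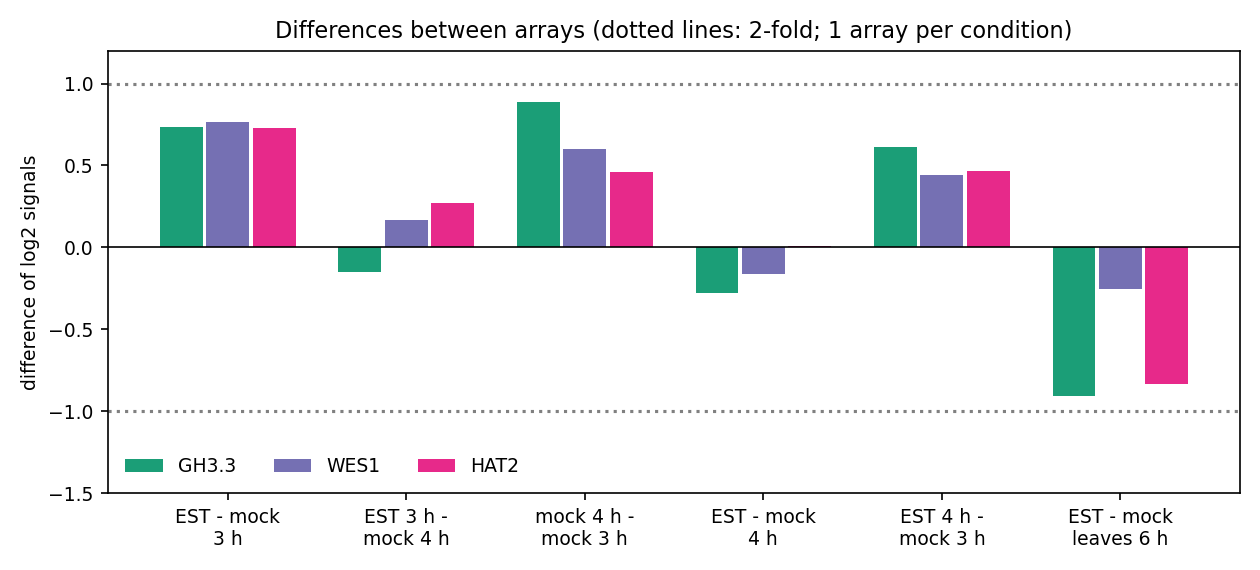
Differences of log2 signals (vertical axis) for GH3.3, WES1 and HAT2 between the pairs of arrays named on the horizontal axis, with 1 array per condition and dotted lines at 2-fold. The bars of EST against mock at 3 h (0.73 to 0.77) stand beside those of mock 4 h against mock 3 h (0.46 to 0.89), and the EST 3 h array set against mock 4 h gives -0.15 to 0.27.

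The low mock 3 h value was not particular to these genes. The mock 3 h array lay at least 0.4 below the other 3 seedling arrays for 313 genes, or 2.34% of the 13355, and the 3 genes are among them. The gap of 0.4 was set after their values were seen. The same holds for 154 genes on the EST 3 h array, 65 on the mock 4 h array and 66 on the EST 4 h array. In the opposite direction the mock 3 h array was the highest by that gap for 243 genes, against 161, 96 and 180 on the EST 3 h, mock 4 h and EST 4 h arrays. Why the mock 3 h array stood apart was not tested.

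**Figure D3:**
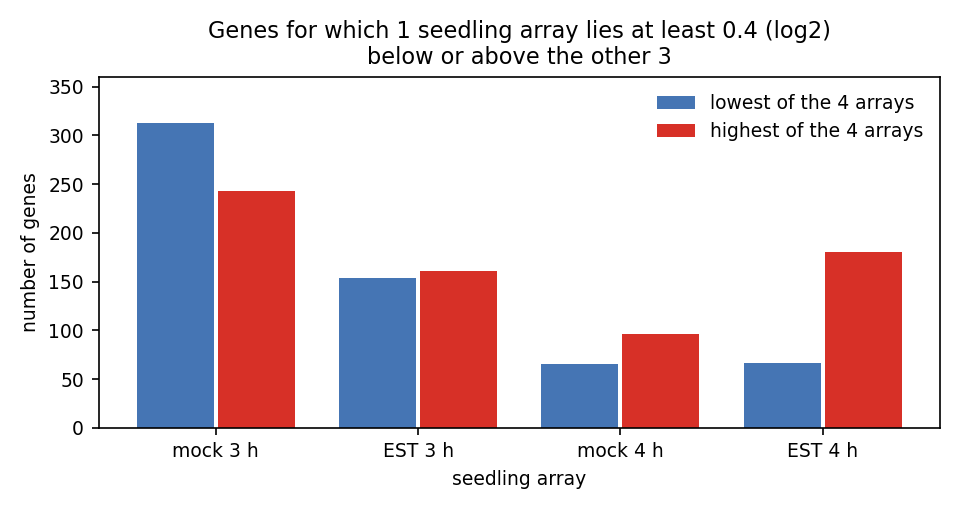
Number of genes, of 13355, for which the seedling array on the horizontal axis lies at least 0.4 on the log2 scale below (blue) or above (red) the other 3 seedling arrays. The mock 3 h array has the highest count in both directions, 313 and 243.

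At 4 h in seedlings the 3 genes showed little difference between EST and mock. GH3.3 differed by -0.28, WES1 by -0.16 and HAT2 by 0.01, which became -0.05 after quantile normalization. None reached 2-fold, against 0.614% of all genes upward and 0.18% downward. Between the EST arrays of 4 h and 3 h the genes differed by -0.13, -0.33 and -0.26, so that the signal after EST was somewhat lower at 4 h for each. Set against the mock 3 h array, the EST array of 4 h would have given 0.61 for GH3.3, 0.44 for WES1 and 0.47 for HAT2.

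In detached leaves at 6 h the signals after EST were below those of mock. GH3.3 differed by -0.91 and HAT2 by -0.84, which are 1.88-fold and 1.79-fold lower, and WES1 differed by -0.26, or 1.19-fold lower. None reached 2-fold, against 1.14% of all genes downward and 1.02% upward, whereas GH3.3 and HAT2 passed 1.5-fold, as did 4.35% of all genes. A difference as low as that of GH3.3 was found for 201 genes, that gene included. For HAT2 the figure was 254, and for WES1 1757. These counts are out of all genes, including genes at the lowest value, which cannot fall. Among the 3058 genes of the signal window used for the mock drift, the same middle range of the leaf differences ran from -0.91 to 0.85. The leaf differences of GH3.3, HAT2 and WES1 lie inside it, that of GH3.3 at its lower edge. That window was set by the seedling signal, so these genes are not matched by their level in leaves. Leaves have no second mock array, so no drift without EST could be measured there. Both leaf arrays came from detached tissue.

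The level in leaves was above that in seedlings for each of the 3 genes, whichever treatment was compared. Between mock leaves and the mean of the mock seedling arrays, GH3.3 was higher by 1.89, WES1 by 0.85 and HAT2 by 3.24, or 3.70-fold, 1.80-fold and 9.43-fold. After EST the separation was smaller, with 0.75 for GH3.3, 0.29 for WES1 and 2.03 for HAT2. On the mock arrays GH3.3 and HAT2, 2 of the 3 genes, passed 2-fold in favour of leaves, compared with 13.3% of all genes, while 12.5% passed 2-fold in favour of seedlings. All 3 passed 1.5-fold, as did 18.9% of all genes. For the 3 genes both leaf arrays stood above all 4 seedling arrays, a pattern held by 23.6% of all genes. Within seedlings the standard deviation over the 4 arrays, which differ in treatment and time, was 0.39 for GH3.3, 0.33 for WES1 and 0.30 for HAT2. The mean of the leaf arrays exceeded that of the seedling arrays by 1.32, 0.57 and 2.63, respectively. WES1 thus had the smallest separation from its spread within seedlings and HAT2 the largest. Tissue, age, growth on soil or plates, detachment and harvest time differed together between these samples and cannot be told apart. In samples of whole tissue, fewer cells of a type and less RNA per cell cannot be told apart either, and the roots contained in seedlings, marked by PYK10, were absent from leaves. Their part in the lower seedling signals was not tested.

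Other genes of the auxin pathway were examined by lists of loci. The lists hold 142 loci, of which 28 were measured, and 25 of these are not among the 3 genes described above. A gene counts as measured only where the annotation used here pairs a probe set with it alone. It does so for 0 of the receptor genes of the TIR1 and AFB group, 0 of the ARF genes and 0 of the genes listed for auxin transport, which were therefore not analysed here, whatever their signal on the arrays. On all 6 arrays 19 of the 28 stayed within 0.25 of the lowest value, where no decrease and no order can be seen. This left 6 genes other than the 3, namely GH3.9, GH3.17, IAA18, YUC2, AT1G14130 and AT1G14120. Of these 6 genes, 1 was at least 2-fold higher after EST at 3 h, against 1.13% of all genes, 0 at 4 h, against 0.614%, and 0 in leaves, against 1.02%. The gene at 3 h was AT1G14130, whose difference of 1.01 barely passed the threshold and stood beside a mock drift of 0.81. None of the 6 was at least 2-fold lower at any of the 3 time points, against 0.389%, 0.18% and 1.14%. With so few genes these counts say nothing about the pathway. Over the 6 genes the EST minus mock differences had medians of 0.20 (3 h), -0.28 (4 h) and 0.02 (leaves), and their median mock drift was 0.45. These medians include signals of GH3.9, GH3.17 and AT1G14120 within 0.25 of the lowest value, so they give no size. The median of all 13355 genes was 0.00 in each case, but these, unlike the 6, include genes at the lowest value. Among the 3058 genes with a mean seedling signal between 4 and 7, the median mock drift was 0.06. Over the 3 pairs of arrays taken as replicates, 0 of the 6 genes passed an adjusted p of 0.05 in limma with the Benjamini-Hochberg adjustment, and 0 had an unadjusted p below 0.05. The background was also 0%, as 0 of 13355 genes passed, so the adjusted result says nothing about the 6 genes in particular. At an unadjusted p below 0.05, 385 of all genes were higher and 228 lower. Without any effect a share of 0.05 of all genes would be expected there, which these counts together do not exceed.

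Of the GH3 family, 11 of 19 loci were measured and 4 exceeded the lowest value by more than 0.25 on at least 1 array, namely GH3.3, WES1, GH3.17 and GH3.9. GH3.17, which conjugates auxin to glutamate, had weak signals of 2.30 in mock and 3.04 in EST seedlings at 3 h, 3.08 and 2.73 at 4 h, and 2.15 on both leaf arrays. Its mock 3 h and leaf signals lay within 0.25 of the lowest value, so the size of its differences from them is not known, and a level in leaves was not detectable. GH3.9 was as weak, with signals between 2.15 and 2.85, and its EST signals and its mock leaf signal also lay within 0.25 of the lowest value, so that its differences give no size. The remaining 7, GH3.1, AT1G23160, AT5G51470, AT5G13350, AT5G13380, AT1G48670 and AT1G48660, were at or near the lowest value throughout. Of the homeodomain-leucine zipper class II family, only HAT2 was measured among 10 loci, so its signals could not be set beside those of its relatives.

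Of the Aux/IAA repressors, 7 of 29 were measured, and IAA18 alone gave a signal clear of the minimum. Its signal of 8.29 to 8.44 in seedlings and of 9.26 and 9.24 in leaves differed between EST and mock by 0.08, -0.03 and -0.02. It thus shared the higher level in leaves, by 0.92 on the mock arrays, but neither the 3 h difference nor the mock drift, which was -0.05. YUC2, an enzyme of auxin synthesis, differed by -0.14, -0.06 and -0.36 between EST and mock, with a mock drift of -0.52.

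Among the loci listed for auxin turnover, AT1G14130 repeated the seedling pattern of the 3 genes. Its signal was 5.12 in mock and 6.13 in EST seedlings at 3 h, 5.93 and 5.70 at 4 h, and 4.55 and 4.58 in leaves. The difference was 1.01 at 3 h and -0.23 at 4 h, and the mock drift was 0.81. Its neighbour on the list, AT1G14120, differed by 0.32 and -0.32 with a drift of 0.56. Both had a lower signal in leaves than in seedlings on the mock arrays, where GH3.3, WES1 and HAT2 had a higher one. For AT1G14130 the difference was -0.98, and EST and mock leaves differed by 0.03. AT1G14120 had signals of 2.32 and 2.39 in leaves, within 0.25 of the lowest value, against 6.29 and 6.85 in mock seedlings, so its difference is a bound and its leaf arrays cannot be compared. The mock 3 h array was lowest by at least 0.4 for AT1G14130 and GH3.17 among the 6 genes, against 2.34% of all genes, and for GH3.17 that value was near the minimum.

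**Figure D4:**
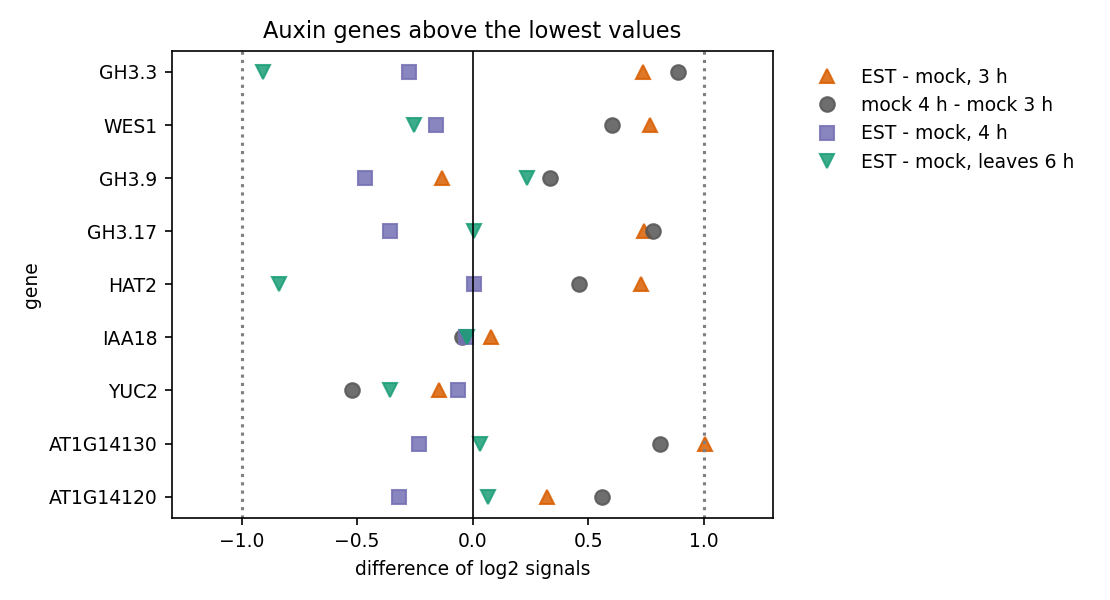
Differences of log2 signals (horizontal axis) for the 9 measured auxin genes that exceeded the lowest value by more than 0.25 on any array; triangles are EST against mock at 3 h, circles mock 4 h against mock 3 h, squares EST against mock at 4 h and inverted triangles EST against mock in leaves. GH3.3, WES1, HAT2, GH3.17 and AT1G14130 have both the 3 h difference and the mock drift to the right of 0.4, while only GH3.3 and HAT2 lie left of -0.5 in leaves. GH3.9, GH3.17 and AT1G14120 had arrays within 0.25 of the lowest value, so some of their points give no size.

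The profiles of the 3 genes over the 6 arrays were then set against those of all other genes, each gene centred on its own mean, with the root mean square of the differences as measure. GH3.3 and WES1 were 0.41 apart, GH3.3 and HAT2 0.64, and WES1 and HAT2 0.99. For GH3.3, 747 of the other 13354 genes had a profile closer than that of WES1 and 2728 one closer than that of HAT2. For HAT2, 860 genes were closer than GH3.3 and 2153 closer than WES1. For WES1, 7822 genes were closer than GH3.3 and 11964 closer than HAT2. The measure depends on the size of the differences as well as on their order over the arrays. WES1 varied over a smaller range than GH3.3 and HAT2, so a gene with little change on any array can lie close to it. These counts therefore do not show that most genes share the pattern of WES1. The closest profiles to GH3.3 were those of AT1G55760 (0.11), AT1G62840 (0.12) and AT4G23880 (0.15). In seedlings their signals were weak, from 2.66 to 3.74, against 5.06 to 5.95 for GH3.3. AT4G23880 had the same value, 3.05, on every seedling array but mock 3 h. AT1G62840 differed by 0.81, -0.10 and -1.16 at 3 h, 4 h and 6 h and had a mock drift of 0.92. The closest to WES1 were AT3G62920 (0.09), AT5G59950 (0.11) and AT3G60410 (0.12), with differences at 3 h of 0.53, 0.56 and 0.71. The closest to HAT2 were AT3G47510 (0.14), AT4G39780 (0.15) and AT2G36670 (0.15), which were higher in mock leaves than in mock seedlings by 2.97, 2.88 and 2.95 and differed after EST in leaves by -0.85, -0.65 and -0.49. None of the 9 genes was among the auxin lists. Of the listed genes other than the 3, only 25 were measured, and only 6 of these stood clear of the lowest value on any array. With so few that could appear among the other 13354 genes, their absence says nothing about a link of these profiles to auxin.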

How the data were processed

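RNA of GRF9-IOE seedlings and detached leaves was hybridised to 6 ATH1 arrays, 1 per condition. The authors deposited 1 log2 signal for each probe set and array, normalized with GCRMA, whose version is not given in the sources used here. These signals were analysed without further scaling.

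The annotation paired 13513 of 22746 non-control probe sets with exactly 1 gene (13436 matched a TAIR10.1 locus, 77 did not). It gave several genes for 503 and did not list 8730. Where a gene had several probe sets (147 genes), that with the highest mean over the arrays stood for it, leaving 13355 genes. No probe intensities, sequences or coordinates were used.

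Differences of log2 signals were taken between arrays, and genes at least 2-fold apart were counted. Following the study's methods, a limma model (version 3.58.1, R 4.3.3) treated the 3 time points as replicates. It had the EST and mock arrays of a time point as a block, and p-values were adjusted by Benjamini-Hochberg. The fit has 2 residual degrees of freedom and measures only the spread between these pairs. Its code was run on simulated data with changes larger than the EST minus mock differences of the 3 genes. That run does not show what the fit can detect in these data. No probability is given for the 3 genes.

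The genes, lists and comparisons were chosen with earlier results of these data known. The gap of 0.4, the signal window of 4 to 7 and the distance of 0.25 were chosen after seeing the data. Named are the 3 genes, every measured gene of the GH3 and homeodomain-leucine zipper class II families, up to 4 genes of each other auxin list that were at least 2-fold different after EST, the 3 closest profiles to each gene, and markers. IAA18, YUC2 and AT1G14120 were added to these once their values were known. The alternatives comprised quantile normalization, centring, exchanged or averaged mock seedling arrays, other fold thresholds, all probe sets, a filter at a signal of 6, each pair left out, and limma without the block or with a trend. Python 3.11.15 and matplotlib 3.10.9 were used.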

Additional observations from a re-analysis of the deposited data

Results flagged for a closer look

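HAT2 was higher after EST in both seedling pairs, by 0.73 and 0.01, and lower in the leaf pair, by -0.84, so that the leaf difference less the mean seedling difference was -1.21 on the log2 scale. It was singled out because the signs of both seedling differences were opposite to that of the leaf pair. The opposite signs at 3 h and in leaves were not particular to HAT2. GH3.3 had 0.74 and -0.91, and WES1 0.77 and -0.26, with 4 h differences of -0.28 and -0.16. The 3 genes were chosen partly on these differences. The difference between the tissues was not tested, since each condition had 1 array, and the 4 h difference was close to 0, with -0.05 after quantile normalization and -0.03 after centring of the arrays.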

How the results depend on the processing

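Quantile normalization and centring moved no difference of GH3.3, WES1 or HAT2 by more than 0.13, and of their 15 differences 1 changed sign, that of HAT2 at 4 h, with -0.05 and -0.03. A difference of the 3 genes is called moved where it shifted by more than the standard deviation of the mock drift over all genes, 0.249. Exchanging the mock seedling arrays gave -0.15 (GH3.3), 0.17 (WES1) and 0.27 (HAT2) at 3 h and 0.61, 0.44 and 0.47 at 4 h. The mean of both gave 0.29 and 0.47 at 3 h and 0.17 and 0.14 at 4 h for GH3.3 and WES1, and 0.50 and 0.24 for HAT2. The higher level in leaves became 2.33 for GH3.3 and 1.15 for WES1 against mock 3 h, 1.44 and 0.55 against mock 4 h, and 0.75, 0.29 and 2.03 (HAT2) on the EST arrays. With a filter at a signal of 6, 0 of the 3 genes stayed in at 3 h or 4 h and 2 in leaves. Pearson's correlation named 3 of the 9 closest genes again. Counts of genes by fold are given as higher and lower, only where they differed from the main count by a factor of more than 1.5. Those not given, all counts after quantile normalization among them, stayed within that factor. At 1.5-fold they were 492 and 274 at 3 h, 302 and 144 at 4 h, 577 and 581 in leaves, and 378 and 210 for the mock drift. At 3-fold they were 45 and 6, 19 and 0, 17 and 39, and 7 and 2, with 1075 and 920 for leaves against seedlings. Over all probe sets the 2-fold counts were 288 and 97, 163 and 43, 282 and 278, 116 and 66, and 3306 and 3184. With exchanged mock arrays they were 90 higher at 3 h, and 165 and 49 at 4 h. With the filter they were 20 lower at 3 h, 38 and 9 at 4 h, 59 and 78 in leaves, and 14 and 12 for the drift. In limma 0 genes passed with each pair left out in turn, with a trend, and with no replicate block, where an unadjusted p below 0.05 was found for 46 genes upward and 12 downward. With 1 array per condition, no replicate could be left out within a group.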
